A study of Mus musculus with 22 samples.

Results

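Fgf21, its coreceptor gene Klb and the 4 FGF receptor genes Fgfr1, Fgfr2, Fgfr3 and Fgfr4 were followed in mouse pancreas. Members were taken by gene symbol from a table of probe counts, and the 6 symbols were chosen on measured values, the levels of these genes in the same libraries in earlier results: 14 of the 30146 probes, or 6 of the 21450 symbols, carried these names. Fgf21 and Klb had 2 and 1 probes, and Fgfr1, Fgfr2, Fgfr3 and Fgfr4 had 3, 4, 3 and 1.

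FGF21 is a secreted hormone of the endocrine branch of the fibroblast growth factor (FGF) family, made by liver and, in rodents, strongly by pancreatic acinar cells, the cells that make digestive enzymes. It binds cells that carry an FGF receptor, mainly the c form of FGFR1, together with the membrane protein β-klotho, the product of Klb. The receptors also serve locally acting FGFs: in the embryonic pancreas FGF10 from the mesenchyme acts through the b form of FGFR2 on epithelial progenitors, and in liver FGFR4 with β-klotho is the receptor for FGF15.

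The libraries came from whole pancreas of C57Bl/6 dams and of their pups, taken at birth, and were made with TempO-Seq, a targeted assay that joins 2 neighbouring oligonucleotides on each transcript and sequences the joined probe. TCDD dams received 20 ng/kg of TCDD per day (a dioxin and a ligand of the aryl hydrocarbon receptor) as subcutaneous injections 2 times per week from before mating to birth, and control dams received corn oil. Pups were exposed through the dam only, with 1 male and 1 female pup taken per litter. By label there were 4 TCDD dams, 4 TCDD female pups and 4 TCDD male pups, against 4 control dams, 3 control female pups and 3 control male pups, and each library is named below by these labels and the number of its dam or litter.

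Stage labels and stage genes conflicted, so levels are given for 2 library classes. In 8 adult-type libraries the fetal gene Afp had 0 to 1.25 CPM (counts scaled to a library total of 1e6) and the lipase gene Pnlip, known to rise after birth, 40765 to 48925 CPM. In 14 newborn-type libraries Afp had 468 to 1487 CPM and Pnlip 22.3 to 91.6 CPM. The adult type held 6 TCDD and 2 control libraries, 4 labelled dam and 4 labelled pup, and the newborn type held 6 TCDD and 8 control libraries, 4 labelled dam and 10 labelled pup. The class went with the stage label in 14 libraries and against it in 8. The chemical labels are used as given and were not checked here. Markers of acinar cells summed to 359000 to 394737 CPM in the adult type and 228446 to 293403 CPM in the newborn type, while the islet factor gene Pdx1 was at 0 counts in every library. Total counts ran from 11223816 to 34911410, so that 3 counts, taken as the detection floor, stood for 0.0859 to 0.267 CPM.

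The Fgf21 promoter is shown first, because the regulators named below and the dioxin receptor are known to act through short elements of this kind. The 3 sequences run 5′ to 3′ from 250 bases before to 50 bases after the start site, from RefSeq on GRCm38.p6, whose promoter table matched 5 of the 6 genes. Klb and Fgfr2 are shown beside Fgf21 as the coreceptor gene and the receptor gene with the largest class difference in the opposite direction. Capitals mark matches, on either strand, to TGATGNAAN (the C/EBP-ATF response element bound by ATF4), CACGTG (the E-box), GCGTG (the core of the dioxin response element) and TATAAA (the element bound by TBP).
Fgf21, chr7:45615441-45615740, minus strand: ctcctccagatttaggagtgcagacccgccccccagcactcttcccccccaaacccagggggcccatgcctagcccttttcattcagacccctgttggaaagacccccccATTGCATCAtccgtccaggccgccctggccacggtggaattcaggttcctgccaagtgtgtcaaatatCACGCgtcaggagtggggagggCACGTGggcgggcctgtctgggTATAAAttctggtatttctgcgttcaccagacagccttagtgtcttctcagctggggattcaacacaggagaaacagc
Klb, chr5:65348161-65348460, plus strand: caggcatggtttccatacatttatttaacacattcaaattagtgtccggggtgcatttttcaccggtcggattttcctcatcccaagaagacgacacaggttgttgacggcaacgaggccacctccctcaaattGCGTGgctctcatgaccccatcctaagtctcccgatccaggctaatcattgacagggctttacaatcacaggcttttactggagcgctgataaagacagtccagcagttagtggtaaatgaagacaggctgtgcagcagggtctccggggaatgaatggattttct
Fgfr2, chr7:130266759-130267058, minus strand: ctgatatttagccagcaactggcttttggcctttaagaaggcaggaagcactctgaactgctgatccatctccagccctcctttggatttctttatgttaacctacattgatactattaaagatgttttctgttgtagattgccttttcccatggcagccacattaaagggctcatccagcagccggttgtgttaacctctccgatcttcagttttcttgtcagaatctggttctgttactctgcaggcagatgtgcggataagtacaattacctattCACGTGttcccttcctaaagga

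The Fgf21 window held all 4 motifs. Its TGATGNAAN match, on the opposite strand, lay at -140 to -132 from the start site, and 3.95% of 32851 promoters of the same length hold this motif. The CACGTG match lay at -50 to -45 (7.15% of promoters), the GCGTG match at -72 to -68 on the opposite strand (32.4%) and TATAAA at -28 to -23 (13.6%). The Klb window held GCGTG alone, at -116 to -112, and the Fgfr2 window CACGTG alone, at 29 to 34 after the start. The windows of Fgfr3 and Fgfr4, which are not shown, also held GCGTG and none of the other motifs. The repeat bound by PPAR receptors, searched as 2 copies of AGGTCA with 1 base between them, was in none of the members' windows and in 0.0396% of all promoters. These matches are descriptions of the letters and no binding was measured.

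In CPM, Fgf21 was the only one of the 6 genes with a higher mean in adult-type libraries (with TMM scaling, below, Klb was higher too), and the means of all 4 receptor genes were lower there. The classes were read from these same libraries and the members were proposed from earlier results on them, so the class levels are descriptions with no test. Fgf21 had 7.25 to 27.8 CPM (median 11.98) in adult-type libraries and 0 to 1.46 CPM (median 0.884) in newborn-type libraries, as the sum of its probes. No newborn-type library came near the lowest adult-type one. The means were 13.0 ± 6.64 CPM in the adult type and 0.783 ± 0.432 CPM in the newborn type (SD, n = 8 and 14), a ratio of 16.6.

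On the scale of mean log2(CPM + 0.5) the Fgf21 difference, adult type minus newborn type, was 3.36, with a pooled SD of 0.573 between libraries, and 5.01 above the median of all genes. That median was -1.65 over all 11366 genes with a mean of at least 1 CPM in a class, and 7 of those genes lay above Fgf21. Both Fgf21 probes showed it: the probe numbered 71031 averaged 7.79 CPM in the adult type and 0.498 CPM in the newborn type, and the probe numbered 29090 averaged 5.24 CPM in the adult type and 0.285 CPM in the newborn type. Behind these levels stood 102 to 455 counts per adult-type library and 0 to 22 per newborn-type library. The library of control female pup 4 had 0 Fgf21 counts, which allows up to 0.227 CPM.

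Most genes shifted between the classes. A library's top 20 probes held 69.8 to 74.7% of its counts in the adult type and 47.1 to 59.6% in the newborn type, and most other genes had lower CPM in the adult type. Of 15592 probes with a mean of at least 1 CPM in a class, 71.8% were lower in every adult-type than in every newborn-type library, and 0.443% were higher in every adult-type one. Of the 14 member probes, 10 were lower in this way, 2 (both of Fgf21) were higher, and 2 overlapped. By gene, 4 of the 6 were lower without overlap, against 73.8% of all 11366 genes, and 1 was higher, against 0.519%. The share of lower probes lies near the background, so the difference of each of the 6 genes is also given against the median of all genes. In bulk tissue, fewer cells of a type and less RNA per cell cannot be told apart.

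**Figure D1:**
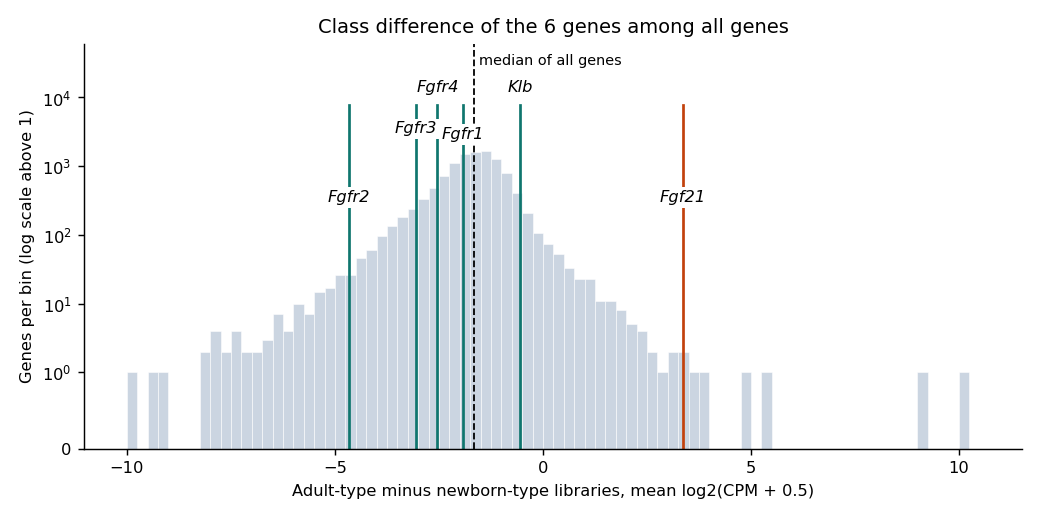
Number of genes (vertical, log scale above 1) by difference of mean log2(CPM + 0.5), adult-type minus newborn-type libraries (horizontal), for 11366 genes with a mean of at least 1 CPM in a class. Vertical lines mark the 6 genes and the dashed line the median of all genes at -1.65: Fgf21 at 3.36 lies far to the right, Fgfr2 at -4.66 far to the left, and Fgfr1 at -1.92 near the median.

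Klb, the gene of the coreceptor that FGF21 needs, did not separate the classes. It had 0.673 to 5.84 CPM (median 1.47) in adult-type libraries and 1.31 to 4.47 CPM (median 2.60) in newborn-type libraries. Of the 8 adult-type libraries, 4 lay below the lowest newborn-type one, 3 within the newborn range and 1, TCDD female pup 6, above it. The difference was -0.54 on the log2 scale, with a pooled SD of 0.563, and 1.10 above the median of all genes. Its sign depends on the scaling: with TMM factors, which set the bulk of genes equal between libraries, the Klb difference was 0.98.

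Fgfr1, the main partner of β-klotho for FGF21, had 5.81 to 21.5 CPM (median 8.95) in adult-type libraries and 31.1 to 51.4 CPM (median 36.6) in newborn-type libraries. The classes did not overlap in CPM. The difference of -1.92 was 0.27 below the median of all genes, and with TMM factors it was -0.08 and the classes overlapped. The most abundant Fgfr1 probe (77690) averaged 9.23 CPM in the adult type and 34.4 CPM in the newborn type. The probe numbered 75611, with 0.220 CPM in the adult type and 0.714 CPM in the newborn type, had a mean under 1 CPM in both and was the 1 member probe outside the background set.

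Fgfr2, a receptor gene of pancreatic epithelium, had the largest absolute difference of the 6 on library totals, while with TMM or RLE factors and against the median of all genes that of Fgf21 was larger. It had 1.95 to 4.34 CPM (median 3.01) in adult-type libraries and 67.9 to 120 CPM (median 86.6) in newborn-type libraries. The newborn-type mean was 29.0 times the adult-type one, 3.11 ± 0.89 CPM in the adult type and 90.1 ± 18.04 CPM in the newborn type (SD, n = 8 and 14). The difference of -4.66 was 3.02 below the median of all genes, and 114 of the 11366 genes had a lower one. All 4 probes were without overlap, and the files do not tie a probe to the b or c form.

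Fgfr3 had 1.66 to 5.12 CPM (median 4.27) in adult-type libraries and 22.3 to 50.5 CPM (median 29.6) in newborn-type libraries. Its difference of -3.05 was 1.40 below the median of all genes. Within the adult type its levels lay in 2 sets: TCDD dams 8 and 11 and TCDD male pup 11 had 1.66 to 2.20 CPM, and the other libraries 4.07 to 5.12 CPM.

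Fgfr4, the receptor gene best known from hepatocytes, was near the floor in the adult type. It had 0 to 0.407 CPM (median 0.216), or 0 to 7 counts, in adult-type libraries and 2.21 to 5.92 CPM (median 3.39), or 38 to 106 counts, in newborn-type libraries. The difference of -2.54 on the log2(CPM + 0.5) scale was 0.89 below the median of all genes. It understates the change of so low a gene, and with a pseudocount of 0.1 CPM it was -3.70. The 12 hepatocyte markers moved in the same direction: they summed to 4.54 to 25.6 CPM in the adult type and 596 to 1763 CPM in the newborn type, with no overlap for any of the 12 (all genes: 73.8% lower without overlap). Their part in the Fgfr4 difference was not tested.

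**Figure D2:**
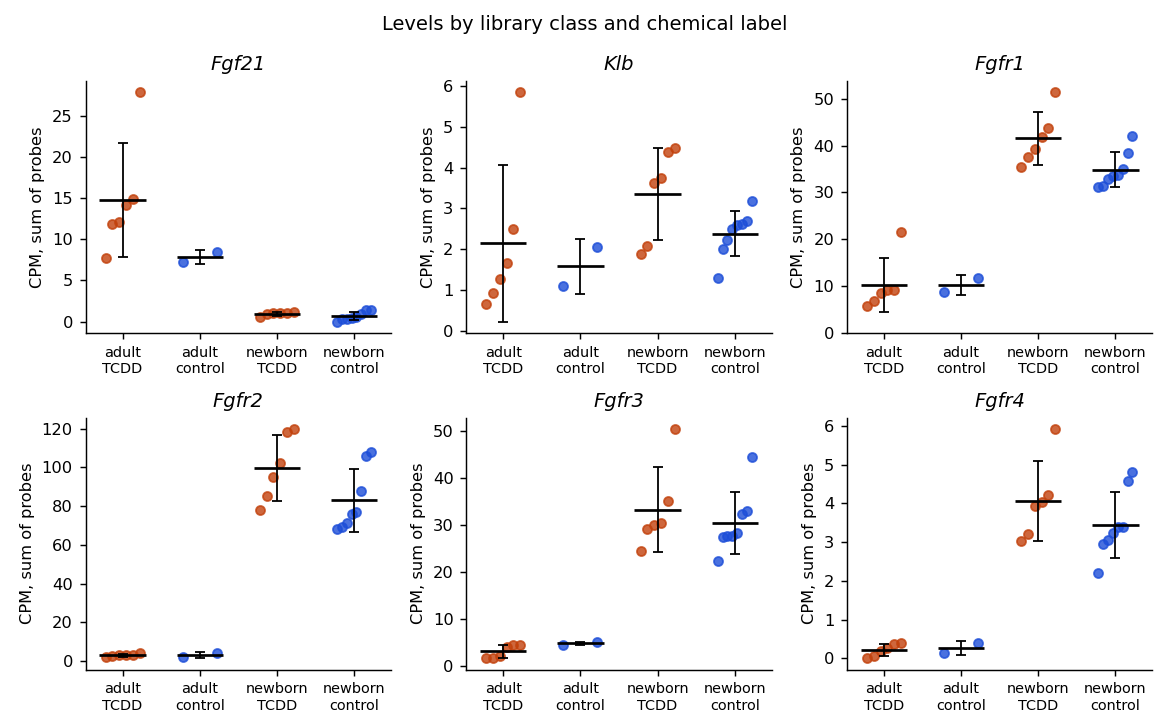
CPM summed over the probes of each gene (vertical, linear, 1 panel per gene) in adult-type TCDD (n = 6), adult-type control (n = 2), newborn-type TCDD (n = 6) and newborn-type control (n = 8) libraries; points are libraries, bars the mean and SD. Fgf21 is high in both adult-type groups, Fgfr1, Fgfr2, Fgfr3 and Fgfr4 in both newborn-type groups, and the Klb groups overlap.

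The genes around the receptors were read from lists of the pathway. None of the 21 other FGF ligand genes was higher in every adult-type library, and 6 were lower in every one. These were also the only 6 with a mean of at least 1 CPM in a class. Among all 11366 genes with such a mean, 0.519% were higher and 73.8% lower in every adult-type library. Fgf10, the mesenchymal ligand of FGFR2, had a median of 0.291 CPM in the adult type and 6.27 CPM in the newborn type, and Fgf7, a ligand of the same receptor form, 0.457 CPM in the adult type and 4.38 CPM in the newborn type. Fgf1, a ligand of all 4 receptors, had 2.23 and 20.5 CPM in the adult and newborn type. Fgf2, Fgf16 and Fgf18 differed by -2.12, -1.80 and -1.71 on the log2 scale. Fgf15, the gut hormone that shares β-klotho with FGF21, did not exceed 0.227 CPM in any library. The ligand list had a median difference of -0.07, against -1.65 over all genes, as most of its members were near 0 throughout.

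Coreceptors, decoy receptors and binding proteins included 13 of 17 genes that were lower in every adult-type library and none higher, or 13 of the 13 with a mean of at least 1 CPM in a class, with a median difference of -1.98 (all genes: 73.8% lower without overlap, median -1.65). Gpc3, a heparan sulfate proteoglycan of the cell surface, had a median of 3.33 CPM in the adult type and 158 CPM in the newborn type. Fap, the protease that inactivates human FGF21 and marks fibroblasts, had 2.71 and 94.9 CPM in the adult and newborn type. Fgfrl1, a receptor without a kinase domain, had 4.97 and 77.2 CPM in the adult and newborn type. Sdc2, Sdc3 and Flrt3 differed by -2.85, -2.66 and -2.64 on the log2 scale.

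Adaptors and the MAPK cascade, which carry the signal of all FGF receptors, lay near the general shift, with a median difference of -1.75. Of the list's 17 genes, 13 were lower in every adult-type library (13 of the 16 with a mean of at least 1 CPM in a class, beside 73.8% of all genes). Among its members, Nras differed by -2.63, Mapk3, the gene of the kinase ERK1, by -2.43, the adaptor gene Shc1 by -2.32 and the phospholipase gene Plcg1 by -2.22. Genes induced by FGF signalling, many of them feedback inhibitors, had 9 of 19 members (9 of the 13 with a mean of at least 1 CPM in a class, beside 73.8% of all genes) lower in every adult-type library and a median difference of -1.68. Dusp6, a phosphatase of ERK, had a median of 2.16 CPM in the adult type and 32.0 CPM in the newborn type. Etv1, a transcription factor induced by FGFs, differed by -3.40, Dusp5 by -3.02, Spred1 by -2.70, Spry1 by -2.48 and Etv5 by -2.11.

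Of 20 known transcriptional regulators of Fgf21, none was higher in every adult-type library and 7 were lower in every one. Among all 11366 genes these shares were 0.519% and 73.8%. The list's median difference was -0.98. This median lies 0.67 above that of all genes, 18 of the 20 differences lie above the all-gene median, and Bhlha15, an acinar factor looked up after its value was seen, had a difference of 0.24 with overlap. Ppara, which drives hepatic Fgf21 in fasting, had a median of 3.03 CPM in the adult type and 7.03 CPM in the newborn type. Atf4, the effector of the integrated stress response, had 104 and 187 CPM in the adult and newborn type, and Ddit3, its partner, 0.669 and 1.94 CPM in the same classes. Creb3l3, a hepatic factor that acts with PPARα, had 0.480 CPM in the adult type and 25.3 CPM in the newborn type. Relative to the median of all genes, the differences of Ppara, Atf4, Ddit3 and Creb3l3 were 0.58, 0.83, 0.57 and -2.80. Nfe2l2 differed by -2.01, Nr1h4 by -1.40, Atf3 by -1.30, Mlxipl by -1.30 and Xbp1 by -1.18, and the last 3 overlapped between the classes.

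ATF4 target genes, the usual companions of Fgf21 in amino acid and ER stress, lay above the general shift. Of the 20 genes, 19 lay above the median of all genes. In every adult-type library 6 were lower (6 of the 19 with a mean of at least 1 CPM in a class) and none was higher. Among all 11366 genes with such a mean, 73.8% were lower and 0.519% higher in this way. The list's median difference was -0.67. Trib3, an inhibitor of ATF4, had a median of 0.654 CPM in the adult type and 4.33 CPM in the newborn type. The serine synthesis genes Psat1 and Psph differed by -1.53 and -1.14, Ddit4 by -1.57, Cebpb by -1.51 and Vldlr by -1.14. In the other direction, Nupr1, Chac1, Aldh1l2 and Slc7a11 differed by 0.55, 0.21, 0.17 and 0.12, all with overlap. They were looked up after their values were seen.

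Cell type markers moved with the classes too, beside every difference above. Acinar markers were higher in every adult-type library for 10 of 18 genes and lower for 2. Of all 11366 genes, 0.519% were higher and 73.8% lower in this way. These shares cover genes with a mean of at least 1 CPM in a class. Among markers with such a mean, 9 of 10 duct and 16 of 16 islet markers were lower, above the latter share. Their median differences were -1.91 and -3.37 (all genes: -1.65). Markers of mesenchyme and stellate cells were lower for 12 of 12 genes, with sums of 56.0 to 130 CPM in the adult type and 1871 to 2932 CPM in the newborn type, islet markers for 16 of 20 (sums of 110 to 389 CPM in the adult type and 1290 to 2530 CPM in the newborn type), duct markers for 9 of 12 and endothelial markers for 9 of 10. Leukocyte markers were lower for 5 of 11 genes, or 5 of the 8 with a mean of at least 1 CPM in a class. None of the 11 adipocyte markers was without overlap. The part of these cell types in the differences of Fgf21 and the receptors was not tested.

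**Figure D3:**
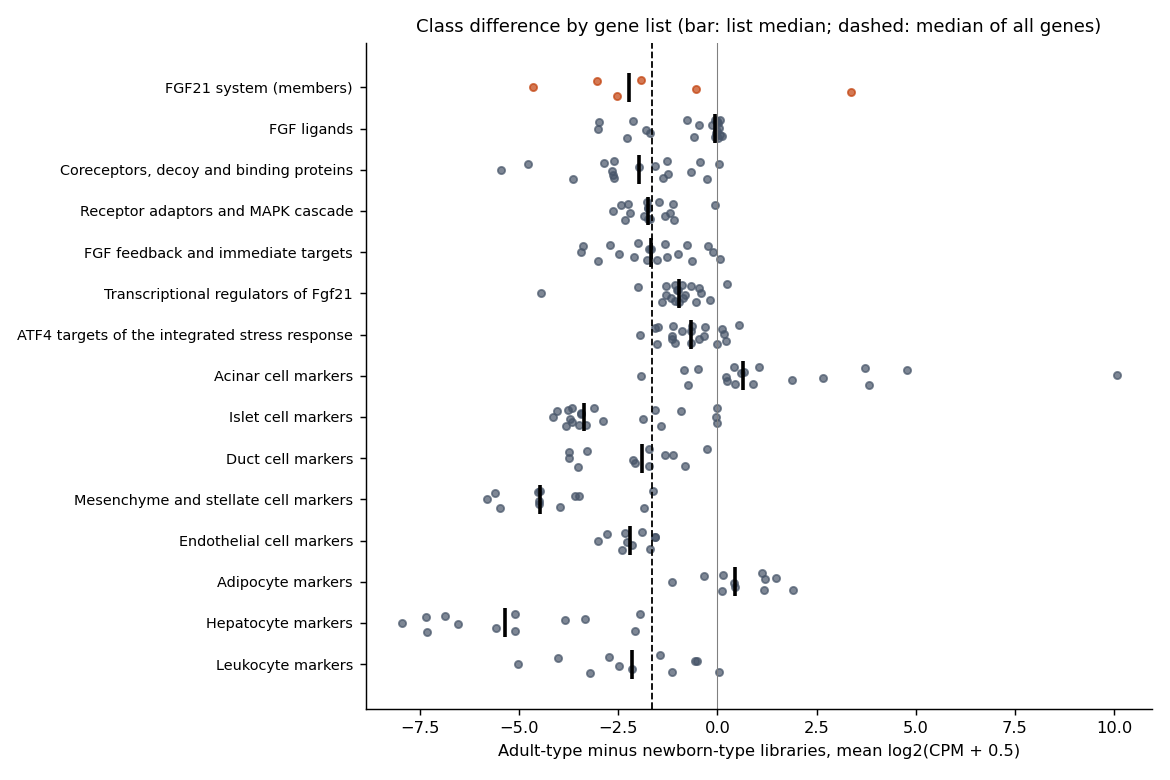
Difference of mean log2(CPM + 0.5), adult-type minus newborn-type libraries (horizontal), for each measured gene (points) of 15 lists (rows), with the list median as a bar and the median of all genes, -1.65, dashed. Fgf21 is the lone member of its list right of 0, acinar markers spread to the right, and hepatocyte, mesenchyme and islet markers lie to the left of the dashed line.

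The probes most like Fgf21 over all 22 libraries were those of Cabp2 (Pearson r of 0.944 with the probe numbered 71031), a calcium-binding protein, Pnlip (0.934 for each of 2 probes), the zymogen granule protein gene Zg16 (0.933) and the ribonuclease gene Rnase1 (0.931). These libraries share the class split, and Pnlip defined it. Over the 8 adult-type libraries alone other genes came first: Hsdl2 (0.925), Use1 (0.901), Pip5k1c (0.878), Atp5f1 (0.869) and the lipolysis inhibitor gene G0s2 (0.867). For Klb they were Epn1 (0.902), Kmt2d (0.891), Aup1 (0.890), Qdpr (0.889) and Ndufb9 (0.880) over all 22 libraries, and Spint2 (0.988), Abhd2 (0.984), Cuzd1 (0.982), Eef1b2 (0.976) and Srpr (0.974) over the 8. These are the highest of 10071 to 14502 probes ranked, and over 8 libraries 1 library can set such a value.

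Within the adult type the level of Fgf21 differed between libraries of the same label. TCDD dam 8 had 27.8 CPM, TCDD dam 11 12.1 CPM, TCDD female pup 6 7.73 CPM, TCDD male pups 8, 10 and 11 14.2, 11.8 and 14.9 CPM, control dam 5 8.40 CPM and control dam 7 7.25 CPM. TCDD dam 8 stood apart at the top, and the lowest 3 were the control dams and TCDD female pup 6. Adipocyte markers moved with the highest library: they summed to 87.5 CPM in TCDD dam 8 and to 7.31 to 31.7 CPM in the other 7, and Adipoq had 17.3 CPM in TCDD dam 8. In the 4 adult-type libraries labelled pup Adipoq had at most 0.128 CPM and Fgf21 7.73 to 14.9 CPM. The part of adipocytes in the Fgf21 level was not tested. Without TCDD dam 8 the Fgf21 class difference was 3.19.

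Klb and Fgfr1 had their highest adult-type level in another library, TCDD female pup 6, with 5.84 CPM of Klb and 21.5 CPM of Fgfr1. The next highest library had 2.49 CPM of Klb (TCDD dam 11) and 11.7 CPM of Fgfr1 (control dam 7). Without TCDD female pup 6 the class differences were -0.77 for Klb and -2.08 for Fgfr1. Endothelial markers, at 39.9 CPM, and mesenchyme markers, at 130 CPM, also had their highest adult-type sums in this library, against 11.2 to 30.8 CPM and 56.0 to 125 CPM in the other 7, and their part was not tested. Among newborn-type libraries Fgf21 was highest in both pups of control litter 7, with 1.46 CPM in the female and 1.37 CPM in the male.

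**Figure D4:**
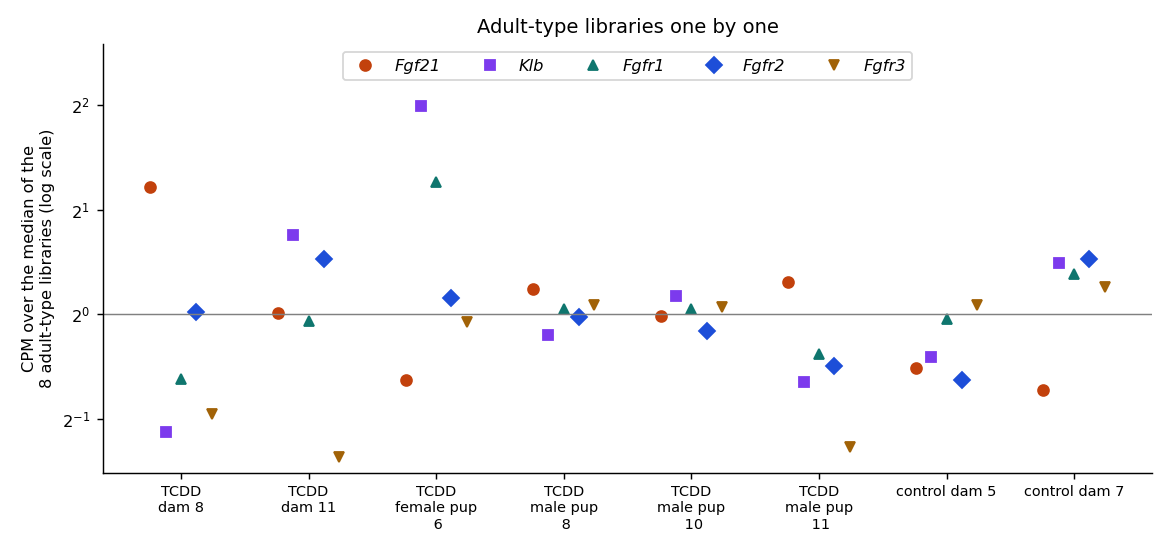
CPM of Fgf21, Klb, Fgfr1, Fgfr2 and Fgfr3 in each of the 8 adult-type libraries (horizontal), divided by the gene's median over those libraries (vertical, log scale); Fgfr4 is left out because it has 0 counts in 1 of them. Fgf21 is highest in TCDD dam 8 (27.8 CPM), Klb and Fgfr1 in TCDD female pup 6 (5.84 and 21.5 CPM).

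Whether the TCDD label went with these genes was tested within each class, over all libraries with the class as a term, and by label group. In edgeR's quasi-likelihood test no probe of any gene passed an adjusted p of 0.05, so the background is 0% of probes called in every one of these comparisons: 0 of 17676 over all libraries, 0 of 13513 in the adult type and 0 of 17109 in the newborn type, with 360, 388 and 554 probes at an unadjusted p under 0.05. DESeq2 also called 0 in these 3 comparisons. None of the 14, 8 and 12 member probes tested was called. Both controls of the adult type are labelled dam, and 4 of its 6 TCDD libraries are labelled pup. With the 2 TCDD dams against the 2 control dams of this class alone, 0 of 12132 probes and 0 of 8 member probes were called, and the Fgf21 fold changes were 1.64 ± 0.35 and 1.42 ± 0.43 (log2, SE, edgeR, adjusted p = 0.754 and 0.999).

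In the adult type Fgf21 had the largest fold changes of the 8 member probes tested. It averaged 14.8 ± 6.87 CPM in TCDD libraries (SD, n = 6) and 7.82 ± 0.812 CPM in control libraries (SD, n = 2), and TCDD female pup 6 lay between the controls. The log2 fold change, TCDD over control, was 1.22 ± 0.44 (SE) for probe 71031 and 0.88 ± 0.49 for probe 29090, with adjusted p = 1.0 for both in edgeR. Probe 71031 lay at 4.31 to 16.0 CPM in TCDD libraries, against 4.23 and 4.41 CPM in control libraries, and TCDD female pup 6 was the 1 TCDD library below a control. Without TCDD dam 8 the fold changes were 0.97 and 0.54, and without control dam 7 that of probe 29090 was 0.50. With no low-count filter, edgeR called probe 71031 (1.22, adjusted p = 0.00418) among 0.405% of 27621 probes; its adjusted p was 0.754 to 1.0 under every other alternative.

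In the newborn type Fgf21 averaged 0.938 ± 0.236 CPM in TCDD libraries (n = 6) and 0.666 ± 0.520 CPM in control libraries (n = 8), with overlapping ranges, and the low-count filter removed both of its probes there. With no filter, with DESeq2 and with probes summed per gene it was tested, and no member was called. Over all libraries its probes had log2 fold changes of 0.74 ± 0.35 and 0.74 ± 0.39 (SE, adjusted p = 1.0 for both in edgeR). The TCDD effect in the adult type minus that in the newborn type was 1.08 ± 0.75 for probe 71031 and 0.36 ± 0.76 for probe 29090 (edgeR, adjusted p = 0.746 and 0.945), so a difference between the classes was not shown. Here edgeR called 0 of 19209 probes (1523 at an unadjusted p under 0.05), 0 of the 14 member probes among them, and DESeq2 called 20 probes, none of a member. Larger values of this difference were fitted for Fgfr1 probe 75611 (1.43 ± 1.41) and Fgfr2 probe 75856 (5.29 ± 2.47, adjusted p = 0.601), which had 0 to 5 counts in each adult-type library, and 0 in both controls, so its fitted value depends on the prior count.

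Klb averaged 3.36 ± 1.13 CPM in newborn-type TCDD libraries and 2.39 ± 0.555 CPM in newborn-type control libraries, with a log2 fold change of 0.32 ± 0.21 (SE). In the adult type its fold change was 0.50 ± 0.58, and 0.08 without TCDD female pup 6. Fgfr1 averaged 41.5 ± 5.63 CPM in newborn-type TCDD libraries and 34.8 ± 3.74 CPM in control ones, Fgfr2 99.8 ± 17.0 CPM and 82.9 ± 16.1 CPM in the same groups, Fgfr3 33.3 ± 9.09 and 30.5 ± 6.62 CPM, and Fgfr4 4.06 ± 1.03 and 3.45 ± 0.853 CPM. All 5 genes overlapped between the labels. The fold changes of the main probes in edgeR, after TMM scaling, were 0.06 ± 0.08 for Fgfr1, 0.11 ± 0.10 for Fgfr2, -0.01 ± 0.11 for Fgfr3 and 0.10 ± 0.17 for Fgfr4 (SE). With library totals in place of TMM the median fold change of all probes in this class was 0.16.

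**Figure D5:**
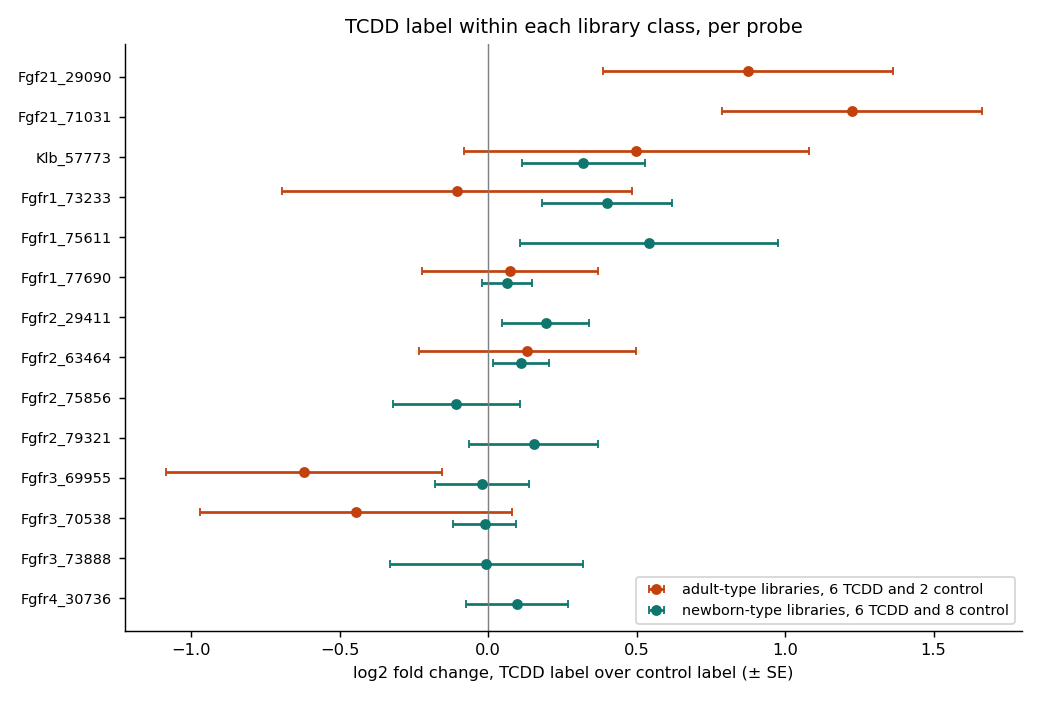
log2 fold change, TCDD label over control label, with its SE (horizontal), for each member probe tested (rows) within adult-type (6 against 2) and newborn-type (6 against 8) libraries. No probe passed the test; the Fgf21 probes, at 1.22 and 0.88 in the adult type, have no newborn-type value because the low-count filter removed them.

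By label group, the classes mix with the TCDD comparison, and in the male pups most. Of the 4 TCDD male pups 3 were adult type and all 3 control male pups were newborn type. Fgf21 had log2 fold changes of 5.42 ± 1.16 and 5.42 ± 1.36 (SE, adjusted p = 0.273 for both in edgeR), with 0 of 16176 probes called and 2703 at an unadjusted p under 0.05. DESeq2 called both Fgf21 probes among 4.6% of its 10642 probes. TCDD male pup 6, the newborn-type library, had 1.06 CPM of Fgf21, beside 11.8 to 14.9 CPM in the other TCDD male pups and 0.356 to 1.37 CPM in control male pups. Without it edgeR called 10 of 12 member probes, 3 higher and 7 lower, and 41.9% of all probes: this sets 3 adult-type TCDD against 3 newborn-type control libraries, and label and class cannot be told apart. In libraries labelled dam, with 2 of each class under either chemical label, the Fgf21 fold changes were 1.72 ± 1.73 and 1.49 ± 1.77 (SE). In libraries labelled female pup, where 1 TCDD library is adult type, that of probe 71031 was 2.60 ± 1.47. Among libraries labelled dam and female pup no member probe was called, of 13 in each, beside 0 of 15594 and 0 of 17513 probes in all (150 and 299 at an unadjusted p under 0.05, and 0 called by DESeq2).

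None of the pathway lists had a called probe for the TCDD label over all libraries or within a class. In the adult type the ATF4 target list had a median log2 fold change of 0.36, against 0.02 over all probes. Of all 13513 probes tested there, 388 had an unadjusted p under 0.05 in edgeR, and of the list's 26 probes 5 did. These, looked up after their values were seen, were Nupr1 (0.88 and 0.79 for its probes), Mthfd2 (0.80), Psph (0.61) and Slc3a2 (0.41), each with an adjusted p of 1.0 in edgeR. Other lists had medians as far from that of all probes: 0.37 for FGF feedback genes, -0.70 for hepatocyte markers and -1.17 for leukocyte markers. Among these markers Alb had a fold change of -3.05 ± 0.76 and Ptprc one of -2.49 ± 0.79 (SE, adjusted p = 1.0 for both in edgeR). In the newborn type the feedback list had a median of 0.16, against -0.001 over all probes. Of all 17109 probes tested there, 554 had an unadjusted p under 0.05 in edgeR, and of the list's 17 probes 3 did. They were Spred2 (0.95), Spry1 (0.33) and Etv5 (0.56), likewise looked up afterwards and with an adjusted p of 1.0.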

How the data were processed

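TempO-Seq libraries of 22 whole pancreas samples were used. The authors deposited 1 table of probe counts, taken as raw because the values are whole numbers and the library totals differ; no label states a normalization. The submitters' processing notes name bcl2fastq 2.17.1.14, and neither an aligner nor a build is stated (not given in the sources used here). No molecular identifiers are described, so intervals and floors (3 counts) cover counting error only. A probe reads a short stretch of a transcript, so levels are compared between libraries and not between genes.

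The members and lists were chosen with earlier results of these data known. Newborn-type libraries had a summed Afp count above the summed Pnlip count. CPM used library totals, summed over the probes of a gene, and class differences used mean log2(CPM + 0.5). TCDD tests used edgeR 4.0.16 (filterByExpr, TMM, glmQLFit, glmQLFTest, Benjamini-Hochberg over all tested probes, threshold 0.05) in R 4.3.3. Replicates are separate animals by label; pairs within a label group and class all differed beyond sampling noise (chi-square over its degrees of freedom at least 7.47). Alternatives were DESeq2 1.42.0, limma 3.58.1 (voom), other scalings, no filter, summed probes, stage-matched libraries, a litter block and leaving out each library. The scripts were tested on simulated data. Motifs were searched in Python 3.11.15.

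Named genes: all members and, per list, up to 6 genes with the largest absolute class difference among those with a mean of at least 1 CPM in a class, plus Ppara, Atf4, Ddit3, Fgf10, Fgf7 and Fgf15, and the 5 probes most correlated with the main Fgf21 and Klb probes. The lists' genes Clps, Amy2b, Nrg4, Itgam and H19 were not analysed here. Some genes that this rule would name in the adaptor list are not reported here.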

Additional observations from a re-analysis of the deposited data

Results flagged for a closer look

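Of 24 groups of 6 to 8 libraries checked, 6 held a library far from the others by Dixon's ratio, which chance gives in about 1 in 20 separate groups. The 6 adult-type libraries labelled TCDD are part of the 8 adult-type ones, so the flagged groups are nested and not independent. Fgf21 in TCDD dam 8 had 27.8 CPM, against 14.9 CPM in the next library, among the 8 adult-type libraries and among the 6 labelled TCDD. Klb in TCDD female pup 6 had 5.84 CPM, against 2.49 CPM in the next library, in both of these groups. Fgfr1 in the same library had 21.5 CPM, against 11.7 CPM in the next of the 8 adult-type libraries and 9.28 CPM in the next of the 6 labelled TCDD.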

How the results depend on the processing

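Class differences (adult type minus newborn type, log2) moved most with the scaling. With TMM and RLE factors they were 4.88 and 4.84 for Fgf21, 0.98 and 0.94 for Klb, -0.084 and -0.13 for Fgfr1, -2.90 and -2.95 for Fgfr2, -1.30 and -1.34 for Fgfr3 and -1.51 and -1.54 for Fgfr4. A pseudocount of 0.1 CPM gave 4.01 for Fgf21 and -3.70 for Fgfr4, 1 CPM gave -1.93 for Fgfr4, and control libraries alone gave -2.51 for Fgfr3. The other 32 recomputed class differences moved by less than the spread between libraries. With 1 library left out they ran from 3.19 to 3.46 for Fgf21, -0.77 to -0.42 for Klb, -2.08 to -1.83 for Fgfr1, -4.73 to -4.59 for Fgfr2, -3.13 to -2.93 for Fgfr3 and -2.59 to -2.46 for Fgfr4.

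Counts of called probes for the TCDD label were 0 in the main comparisons. With no low-count filter the adult type had 1 member probe (Fgf21 71031, 1.22) and 112 probes called. The difference of the TCDD effect between classes had 20 probes with DESeq2, 6 with library totals, 9 with no filter and 5 with stage-matched libraries, and the male pups had 2 member probes and 490 probes with DESeq2. With 1 library left out, calls ran from 0 to 1 over all libraries and 0 to 2 in the adult type (both highest without control dam 5), 0 to 46 for the difference between classes (46 without control dam 5, 19 without TCDD dam 8, at most 4 otherwise), and in the male pups 0 to 10 member probes and 0 to 6451 probes (without TCDD male pup 6). The cause was not tested. With the replicate block, the litter number as a random effect, 0 probes were called over all libraries (468 at an unadjusted p under 0.05; correlation within litters 0.0143); the numbers come from the labels, and as TCDD and control share no litter no fixed block could be fitted.

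Fold changes of single probes that changed sign were not past the test in either setting. Over all libraries they were Fgfr1 77690 (-0.039 with stage-matched libraries), Fgfr2 63464 (-0.43 with no class term) and Fgfr4 30736 (-0.0095 with stage-matched libraries, -0.32 with no class term). In the newborn type it was Fgfr3 70538 (0.0045 with voom, 0.14 with library totals, 0.00027 with stage-matched libraries). In the adult type they were Fgfr1 77690 (-0.0085 with library totals, -0.24 with stage-matched libraries) and Fgfr2 63464 (-0.070 with library totals), and for the difference between classes Fgf21 29090 (-0.017 with library totals). With 1 library left out the ranges over all libraries were -0.068 to 0.13 for Fgfr4 30736. In the newborn type they were -0.086 to 0.023 for Fgfr3 70538 and -0.043 to 0.17 for Fgfr4 30736, in the adult type -0.14 to 0.18 for Fgfr1 77690 and -0.34 to 0.85 for Fgfr2 63464, and for the difference between classes -0.028 to 0.87 for Fgf21 29090.

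Depth limits Fgf21 in newborn-type libraries (0 to 22 counts) and Fgfr4 in adult-type ones (0 to 7 counts). Only 2 control libraries are of the adult type.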
